A study of Mus musculus with 17 samples.

Results

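Sorcs3, Sorcs1, Sorcs2, Sort1 and Sorl1 are the 5 mouse genes of the Vps10p-domain receptor family, and their nuclear RNA was followed in cortex after chronic unpredictable stress (CUS). They were taken by name, as 5 of the 36293 genes in the bulk tables and 5 of the 37608 genes in the single-nucleus tables. The family was chosen by the differences in its bulk counts between CUS and control mice. Bulk values of the 5 genes therefore only describe the libraries that chose them: no p-value of theirs is given, and neither their fold changes and standard errors nor the number of them that a test calls is evidence. The single-nucleus libraries come from other mice and were tested.

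Vps10p-domain receptors are membrane proteins that carry cargo between the cell surface, endosomes and the Golgi. Sortilin (Sort1) binds neurotensin, progranulin and the precursors of neurotrophins, and SorLA (Sorl1) retains the amyloid precursor protein in the Golgi and endosomes and is known as a risk gene for Alzheimer disease. The SorCS proteins are largely neuronal: SorCS1 sorts neurexin and glutamate receptors, SorCS2 binds the precursor of BDNF together with p75NTR, and SorCS3 is found at postsynaptic sites, where it binds the scaffold protein PICK1. Retromer and sorting nexins return these receptors from endosomes.

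All mice were male and without a transgene, of the strain C57BL/6 in GEO's labels and C57BL/6J in the methods of the study. CUS mice received 3 stressors per day for 12 days, beginning at 9 to 10 weeks of age. Controls lived in another room and were handled daily, so that room and handling cannot be told apart from stress. Bulk nuclear RNA-seq used punches of the medial prefrontal cortex (mPFC) of 4 control and 5 CUS mice at postnatal day 90, after behavioral tests. Single-nucleus RNA-seq in droplets (sNucDrop-seq) used whole neocortex of 4 control and 4 CUS mice at postnatal day 80. GEO's labels name the tissue only as cortex. Each library is 1 mouse. Per the methods of the study, the nuclei were made in 2 batches, each of 2 control and 2 CUS mice. These batches differed markedly in expression. GEO's labels do not assign mice to batches, so the tests in nuclei have no batch term and carry that spread within their error. The libraries themselves were split into 2 sets of 2 control and 2 CUS mice each. Of the 18 such splits, the most distinct put control 1 and 4 with CUS 1 and 2, against the other mice. Deviations from the group means correlated by 0.35 on average between control and CUS mice of a set and by -0.34 across sets. Such deviations sum to 0 within a group, so the second value largely follows from the first. Whether these sets are the batches is not known. A fit with the sets as a term was added after the data were seen, and its errors may be too small, since the sets were picked on the same libraries as the most distinct of 18 possible splits.

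Bulk depth ran from 26188825 to 30525015 gene-assigned reads a mouse, and 4699542 to 12477099 UMIs (counted molecules) per mouse came from the 1935 to 4235 nuclei that passed the filters. At most 9 barcodes were shared between any pair of single-nucleus libraries. Markers of cortical excitatory neurons were present in both assays, but striatal markers were too. In bulk, 8 of 9 striatal genes had a fold change below 0 in CUS mice, with a median log2 fold change of -0.77, while the sum of the 9 was 729 to 1193 CPM in control and 1230 to 1480 CPM in CUS mice because Pde10a, the most abundant, rose. Markers of mature oligodendrocytes had a median of -0.51, with 0 of 8 called and sums of 274 to 641 CPM in control and 296 to 372 CPM in CUS mice, while 2 of 5 markers of newly formed oligodendrocytes fell, with a median of -0.43 and sums of 149 to 180 CPM and 132 to 154 CPM. Of 8 astrocyte markers 3 fell, with sums of 2405 to 2792 CPM in control and 2177 to 2529 CPM in CUS mice. None of these lists had a marker at 0 in a group. Markers of neurons moved in both directions. Of the general markers of excitatory neurons, 6 of 6 had a bulk fold change above 0, with a median of 0.24, 1 called higher (Neurod6) and sums of 1050 to 1355 CPM in control and 1326 to 1420 CPM in CUS mice. Of 7 markers of layer 2/3 neurons, 6 were above 0 and 1 was called (Lamp5, which is also in the Ndnf list). But 3 of 6 of layer 4, 5 of 6 of layer 6 and 3 of 3 tested of layer 6b neurons were below 0. None of these was called, and their medians were -0.05, -0.08 and -0.45. Of layer 5 markers, 4 of 6 were above 0, with a median of 0.15 and 0 called. For layer 5/6, 4 of 5 were above 0, with a median of 0.17 and 1 called lower. For near-projecting (NP) neurons 3 of 5 were above 0, with a median of 0.02 and 1 called higher. Of the general markers of inhibitory neurons, 6 of 6 were below 0, with a median of -0.20 and 0 called, whereas most markers of their subtypes were above 0 (4 of 6 for PV, 3 of 5 for SST, 4 of 6 for VIP and 4 of 6 for Ndnf neurons). In the Ndnf list, Lamp5 was called higher and 1 other marker lower. The part of all these cell types in the values below was not tested.

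The receptor genes differ widely in size and in the sequence before their first exon. Positions are those of mm10 in the bulk tables, which equal GENCODE M21 for all 5. Sorcs3 (ENSMUSG00000063434) spans chr19:48206025-48805505 on the plus strand, or 599 kb, of which 1.19% is exon. Sorcs1 (ENSMUSG00000043531) lies on the same chromosome at chr19:50143299-50678646 on the minus strand and spans 535 kb, 1.58% of it exon. Sorcs2 (ENSMUSG00000029093) spans 381 kb at chr5:36017180-36398139 on the minus strand. Sort1 (ENSMUSG00000068747) is compact, with 77.4 kb at chr3:108284082-108361511 on the plus strand, of which 9.78% is exon. Sorl1 (ENSMUSG00000049313) spans 160 kb at chr9:41964720-42124297 on the minus strand. The longest coding sequences hold 1219 codons in Sorcs3, 1192 in Sorcs1, 1159 in Sorcs2, 858 in Sort1 and 2215 in Sorl1, over 27, 27, 27, 21 and 48 exons.

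Promoter sequences of 3 of the 5 genes were matched in RefSeq (GRCm38.p6, the build also called mm10). They are shown because Sorcs3 and Sorcs1, neighbours on chromosome 19, differ at this point. Each line holds the 250 bases before the start site, 5′ to 3′ on the gene's strand, with CpG dinucleotides in capitals: chr19:48205775-48206024 for Sorcs3, chr19:50678647-50678896 for Sorcs1 and chr9:42124298-42124547 for Sorl1.
Sorcs3: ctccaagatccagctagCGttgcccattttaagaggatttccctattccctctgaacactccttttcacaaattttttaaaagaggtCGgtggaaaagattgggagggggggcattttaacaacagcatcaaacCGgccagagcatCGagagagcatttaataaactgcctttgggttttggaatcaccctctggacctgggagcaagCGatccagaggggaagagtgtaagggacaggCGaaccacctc
Sorcs1: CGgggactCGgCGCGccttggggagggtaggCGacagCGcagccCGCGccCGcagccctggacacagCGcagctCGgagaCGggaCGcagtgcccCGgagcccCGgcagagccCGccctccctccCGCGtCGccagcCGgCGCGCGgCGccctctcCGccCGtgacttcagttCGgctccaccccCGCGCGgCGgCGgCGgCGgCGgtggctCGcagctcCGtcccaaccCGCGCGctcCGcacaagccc
Sorl1: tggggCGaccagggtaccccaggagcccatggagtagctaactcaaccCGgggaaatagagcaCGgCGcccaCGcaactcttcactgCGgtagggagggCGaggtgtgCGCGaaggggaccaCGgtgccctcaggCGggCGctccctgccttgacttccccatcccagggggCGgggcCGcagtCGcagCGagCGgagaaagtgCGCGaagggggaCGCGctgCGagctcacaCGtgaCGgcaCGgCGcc
The Sorcs3 stretch holds 6 CpGs, that of Sorcs1 41 and that of Sorl1 26. With the 50 bases after the start site included, the counts are 9, 50 and 37, against a median of 7 over all 32851 RefSeq windows of this length. Fewer CpGs were found in 54.2% of the windows than in Sorcs3, in 99.1% than in Sorcs1 and in 94.4% than in Sorl1. RefSeq lists a further Sorl1 start site, with 9 CpGs in its window.

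Motifs were searched on both strands of these windows. The letters TGACGTCA (cAMP response element; in 1.79% of all windows), AAGATGGC (YY1; 2.75%) and TGANTCA (AP-1; 7.81%) occur in none of the 4 windows. The shorter TGACG, which is part of TGACGTCA, occurs in 20.8% of all windows and here only before the first Sorl1 start, from base -15 to -11. GCGTGGGCG (Egr; 0.612%) also occurs there, on the opposite strand from base -184 to -176. AGAACA, part of the element of the glucocorticoid receptor, is in 19% of all windows and before the further Sorl1 start from base -248 to -243. Sorcs3 and Sorcs1 hold none of these letters in their windows.

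In bulk mPFC nuclei, all 3 SorCS genes and Sorl1 had higher mean levels in CUS than in control mice, by 1.23 to 1.49 fold, while Sort1 differed by 1.04 fold. Levels are CPM, the count of a gene relative to the total of its library, scaled by edgeR's TMM factors. Fewer cells of a type and less RNA per cell cannot be told apart in bulk samples.

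Sorcs3 was at 382, 382, 436 and 354 CPM in the 4 control mice and at 600.3, 584, 598, 559.5 and 552 CPM in the 5 CUS mice. The lowest CUS mouse lay well above the highest control mouse. The means were 389 ± 34.0 CPM (SD, n = 4) and 579 ± 22.1 CPM (n = 5). On the log2 scale CUS mice were higher by 0.57 (standard error 0.06). Across the alternatives tried, all on the mice that chose the family, its fold change stayed between 0.54 and 0.63.

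Sorcs1 was at 443, 381, 466 and 350 CPM in control mice and at 506, 512, 553, 542 and 519 CPM in CUS mice. Here, too, the groups did not overlap, although the control mice spread more widely than the CUS mice. The log2 fold change was 0.36 (standard error 0.08), from 410 ± 53.6 to 526 ± 20.5 CPM. Sorcs2 was the least abundant of the 5, at 122, 132, 156 and 115 CPM in control mice and at 158, 163, 156, 169 and 163 CPM in CUS mice. A control mouse matched the lowest CUS mouse. Its log2 fold change was 0.30 (standard error 0.08).

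**Figure D1:**
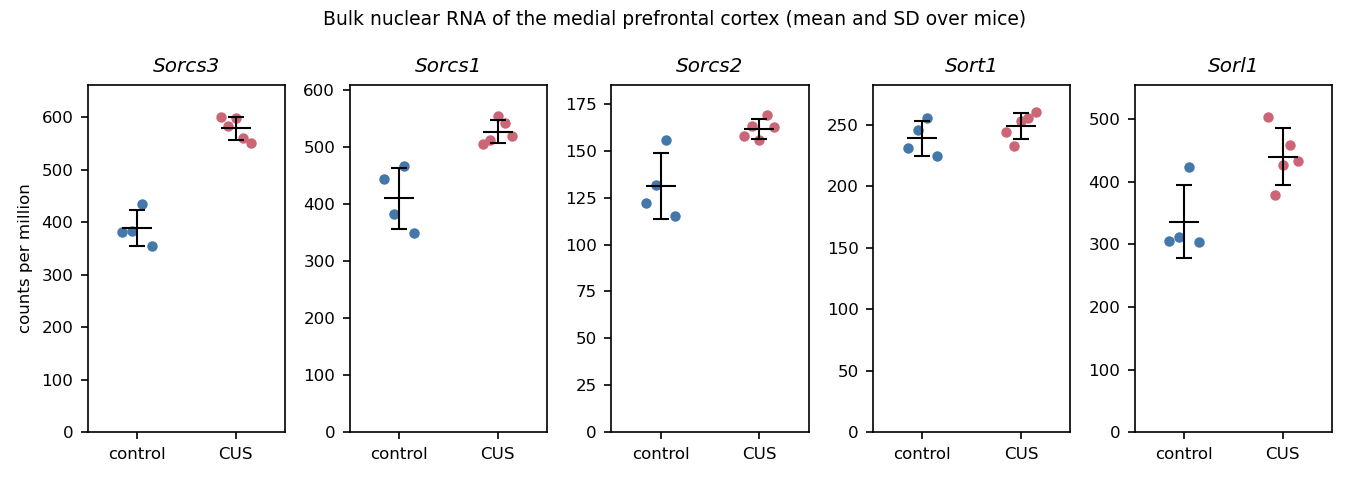
Bulk CPM (y axis) of the 5 receptor genes in 4 control (blue) and 5 CUS (red) mice, 1 point per mouse, with the mean and SD in black. All CUS mice lie above all control mice for Sorcs3 and Sorcs1, the groups touch for Sorcs2, 1 control mouse lies within the CUS range for Sorl1, and the groups overlap for Sort1.

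Sorl1 was at 305, 312, 423 and 304 CPM in control mice and at 503, 378, 426, 458 and 433 CPM in CUS mice. Control replicate 3 stood apart from the other control mice and lay within the CUS range. The log2 fold change was 0.39 (standard error 0.11), and 0.51 without that mouse. Control replicate 3 was also the highest control mouse for Sorcs3, Sorcs1, Sorcs2 and Sort1. Sort1 was at 231, 246, 256 and 225 CPM in control mice and at 244, 233, 253, 256 and 260 CPM in CUS mice. These groups overlapped over most of their range, and the log2 fold change was 0.06 (standard error 0.06).

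At an FDR of 0.05 in edgeR's quasi-likelihood test, 2 of the 5 genes (Sorcs3 and Sorcs1) were called, beside 3.29% of the 18394 genes tested (1.16% higher and 2.13% lower in CUS mice). The groups did not overlap, with CUS higher, for the same 2 genes, beside 4.06% of genes with CUS higher and 8.76% in either direction. Both counts follow from the choice of the family on these mice and carry no evidence. They also moved with the test and with single mice: 4 of 5 were called by edgeR's likelihood ratio test and by DESeq2, and 4 without control replicate 3, but only Sorcs3 without control replicate 2, or without CUS replicate 1, 3, 4 or 5. The 3.29% belongs to the quasi-likelihood test on all mice, and the share of all genes called under these other settings is not given.

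Per kb of gene span, the bulk level in control mice was 3.09 CPM for Sort1, 2.10 for Sorl1, 0.766 for Sorcs1, 0.648 for Sorcs3 and 0.344 for Sorcs2. Per kb of exon the same counts put Sorcs3 first, with 54.5 CPM, before Sorcs1 with 48.6, Sort1 with 31.6, Sorl1 with 29.7 and Sorcs2 with 14.9. Whether intronic reads were counted in bulk is not stated, so the order between the genes is not settled by these values. In the nuclei, where intronic reads were counted, the order per kb of span was that of the bulk, from 2.33 CPM for Sort1 to 0.0772 CPM for Sorcs2 in control mice. Both orders divide by the same spans, so their likeness does not settle the order. Undivided, bulk control means were 410 CPM for Sorcs1, 389 for Sorcs3, 336 for Sorl1, 239 for Sort1 and 131 for Sorcs2. Over all nuclei they were 265, 144, 164, 180 and 29.4 CPM, which is a different order.

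The genes around the receptors were examined next, since a difference along a whole stretch of chromosome would be seen in them. Sorcs3 and Sorcs1 lie 1338 kb apart, with 2 genes listed and 0 tested between them. Of the 9 tested genes within 1 Mb of Sorcs3, 0 were called, with a median log2 fold change of -0.03. The nearest, Cfap43, lies 287 kb before Sorcs3 and was at 2.81 CPM in control and 2.33 CPM in CUS mice. No gene within 1 Mb of Sorcs1 reached the filter, other than Gm26629, a lincRNA whose first bases overlap it on the opposite strand and which extends beyond it, at 0.368 CPM in control mice. No other gene that overlaps a receptor gene passed the filter, and each had under 0.2 CPM in every mouse.

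**Figure D2:**
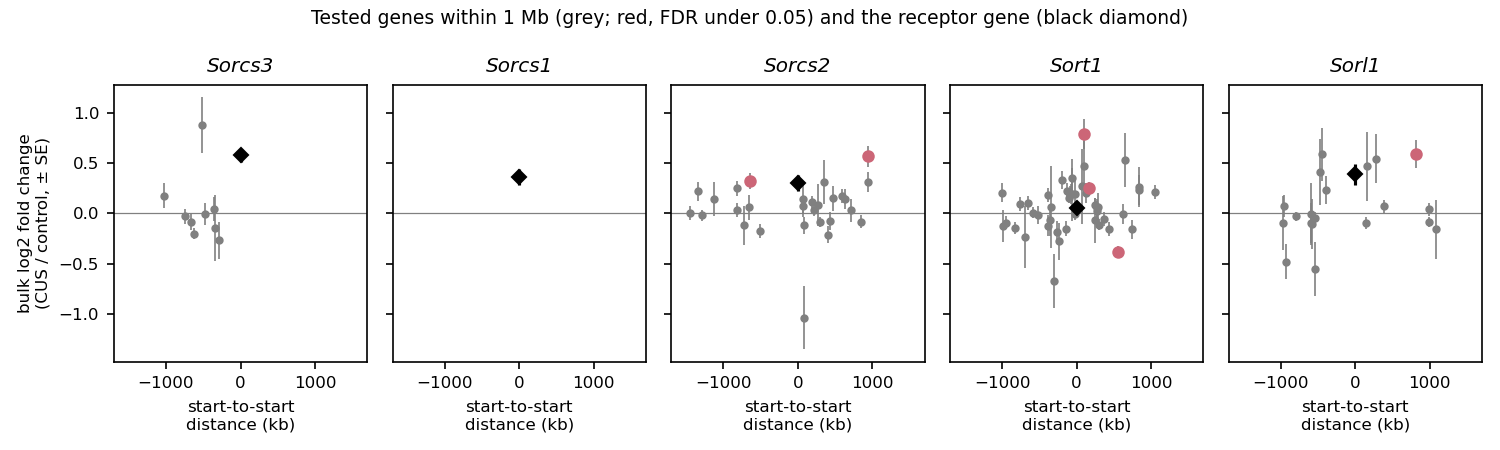
Bulk log2 fold change, CUS against control (y axis, with standard errors), of tested genes within 1 Mb of each receptor gene by the distance in kb between start sites (x axis). Black diamonds are the receptor genes and red points the genes called at an FDR of 0.05. Sorcs3 sits above all but 1 of its neighbours, and Sorcs1 is drawn alone, since the overlapping Gm26629 is the sole gene tested there and is not plotted.

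Around the 5 genes together, 6 of 103 tested neighbours were called, beside 3.29% of all genes, 5 of them higher and 1 lower. Near Sorcs2, Evc2, a gene of the ciliary base, rose by 0.57 on the log2 scale (standard error 0.10, FDR 0.0148 in edgeR's quasi-likelihood test). The nearest tested genes of Sorcs2, Afap1 and 2210406O10Rik, were not called. Near Sort1, Psrc1, a microtubule-associated gene 22.3 kb behind it, rose by 0.79 (0.15, FDR 0.0166) at a low level, from 2.60 to 4.49 CPM. The serine tRNA synthetase gene Sars rose by 0.26 (0.06, FDR 0.0399) and Stxbp3, a gene of vesicle docking, fell by 0.38 on the log2 scale (0.06, FDR 0.0085). The adjacent Psma5 and Gm12525 were not called. Near Sorl1, the glutamate receptor gene Grik4 rose by 0.59 (0.14, FDR 0.0397), whereas the nearest tested genes, Sc5d and Gm35835, were not called. The 6 neighbours became 11 in the likelihood ratio test and 10 in DESeq2, 15 without control replicate 3, and 1 to 4 without control replicate 1, 2 or 4 or without CUS replicate 1, 3, 4 or 5. The 3.29% does not hold for these settings, whose share of all genes called is not given.

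Ligands, partners and sorting machinery of the receptors showed few differences in bulk. Of 55 tested genes, 1 rose and 2 fell, beside 3.29% of all genes called, and their median log2 fold change was -0.01 against 0.01 over all genes. Clu, the chaperone clusterin and a ligand of sortilin, was at 74.3 ± 8.70 CPM in the 4 control and 56.2 ± 5.05 CPM in the 5 CUS mice. This is a log2 fold change of -0.40 (0.09, FDR 0.0285 in edgeR's quasi-likelihood test). It is the only call among 10 ligands and cargo proteins, and astrocytes, whose markers were also lower, are a main source of it. The part of astrocytes in this difference was not tested. Over all nuclei of the other mice Clu pointed the other way, at 86.1 ± 4.51 CPM in control and 121 ± 52.0 CPM in CUS mice, by 0.47 on the log2 scale (0.21), and was not called (FDR 0.595 in edgeR). Astrocyte-like nuclei were 3.02% to 6.46% of nuclei in control and 3.23% to 8.40% in CUS mice, and 23.9% of them came from CUS replicate 1. Their part in this difference was not tested. Bdnf was at 38.8 and 38.0 CPM and App, the amyloid precursor protein, at 697 and 681 CPM in the 2 groups.

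Of 11 co-receptors, 1 rose and 1 fell. Ntrk3, the receptor of neurotrophin-3, was at 940.1, 976, 1093 and 777 CPM in control mice and at 1273, 1335, 1402, 1303 and 1306 CPM in CUS mice. Its groups did not overlap, and CUS mice were higher by 0.48 on the log2 scale (0.08, FDR 0.0130 in edgeR's quasi-likelihood test). Over all nuclei Ntrk3 was at 342 ± 22.5 CPM in control and 335 ± 49.1 CPM in CUS mice, a difference of -0.03 (0.13). Ntsr1, the G-protein-coupled receptor of neurotensin and a marker of layer 6 neurons, fell by 0.65 on the log2 scale (0.14, FDR 0.0323), from 11.1 ± 1.75 to 7.12 ± 1.44 CPM. Ngfr, which encodes p75NTR, did not reach the filter.

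None of the 9 tested genes of retromer and the sorting nexins was called, with a median of -0.12. The same held for the 17 gene IDs of adaptors that bind the receptors' tails (median 0.04; Pick1 has 2 IDs in the tables, with nearly the same counts) and for the 8 proteases that shed or process the receptors (median 0.05). Over all of these lists the count was 5 in the likelihood ratio test, 6 in DESeq2, 6 without control replicate 1 and 5 without control replicate 3, and it was 1 without control replicate 2 or without CUS replicate 1, 4 or 5. No share of all genes called is given for these settings.

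The neocortex of other mice was then examined nucleus by nucleus. After filters, 26699 nuclei fell into 37 clusters, of which 28 classes with over 200 nuclei each are used here. A class carries the name of a cell type with the ending -like where at least 3 of that type's markers were enriched and at least 2 of these stood among the 10 leading genes of the class, and otherwise a prefix (Ex for excitatory, GABA for GABAergic, unnamed for the rest) and its leading gene. Names were rebuilt here and may differ from the study's. Levels are CPM of all UMIs of the class, given as the mean over 8 mice, and the differences between classes are a description, since the classes were formed from the same nuclei.

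Sorcs3 stood out in VIP interneurons, a class that mainly inhibits other interneurons. In Inh_Vip-like nuclei it reached 637 ± 81.5 CPM (SD, n = 8), the highest of all 28 classes in each of the 8 mice. Ex_Slc26a4 nuclei followed with 352 ± 80.9 CPM and Claustrum-like nuclei with 345 ± 45.8 CPM, which did not differ beyond their spread. OPC-like nuclei, oligodendrocyte precursors, had 281 ± 52.2 CPM, and Ex_L2/3-like nuclei, the largest class, 221 ± 29.8 CPM. At the low end were Ex_L6-like nuclei with 36.2 CPM, Inh_Pv-like nuclei with 26.1 CPM and Astrocyte-like nuclei with 18.9 CPM. The last rests on 31 UMIs, with 1 mouse at 0. RNA free in the droplets was not measured, so such low levels are not read as expression. Inh_Vip-like nuclei made up 1.95% of nuclei and 6.34% of Sorcs3 UMIs, while Ex_L2/3-like nuclei gave 23.4% of the UMIs and Ex_Slc26a4 nuclei 14.4%.

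Sorcs1 had a different order. It was highest in Ex_L5-like nuclei, at 788 ± 92.3 CPM, and in Ex_L4-like (Scn7a) nuclei, at 742 ± 76.5 CPM, which did not differ beyond their spread. Inh_Vip-like nuclei came next with 593 ± 131 CPM, then GABA_Pbx3 nuclei with 498 ± 139.8 CPM, OPC-like nuclei with 498 ± 137 CPM and Oligo_Opalin-like nuclei, mature oligodendrocytes, with 425 ± 129 CPM. Inh_Sst-like (Sst), Inh_Pv-like and Astrocyte-like nuclei had 57.3, 60.7 and 37.4 CPM, and Ex_Ctgf nuclei had 16.7 CPM, from 30 UMIs. The Inh_Pv-like level ran from 20.3 to 130 CPM between mice. Sorcs3 and Sorcs1 thus shared the Inh_Vip-like and OPC-like classes and parted in layer 5, where Sorcs3 was at 44.1 CPM in Ex_L5-like nuclei.

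**Figure D3:**
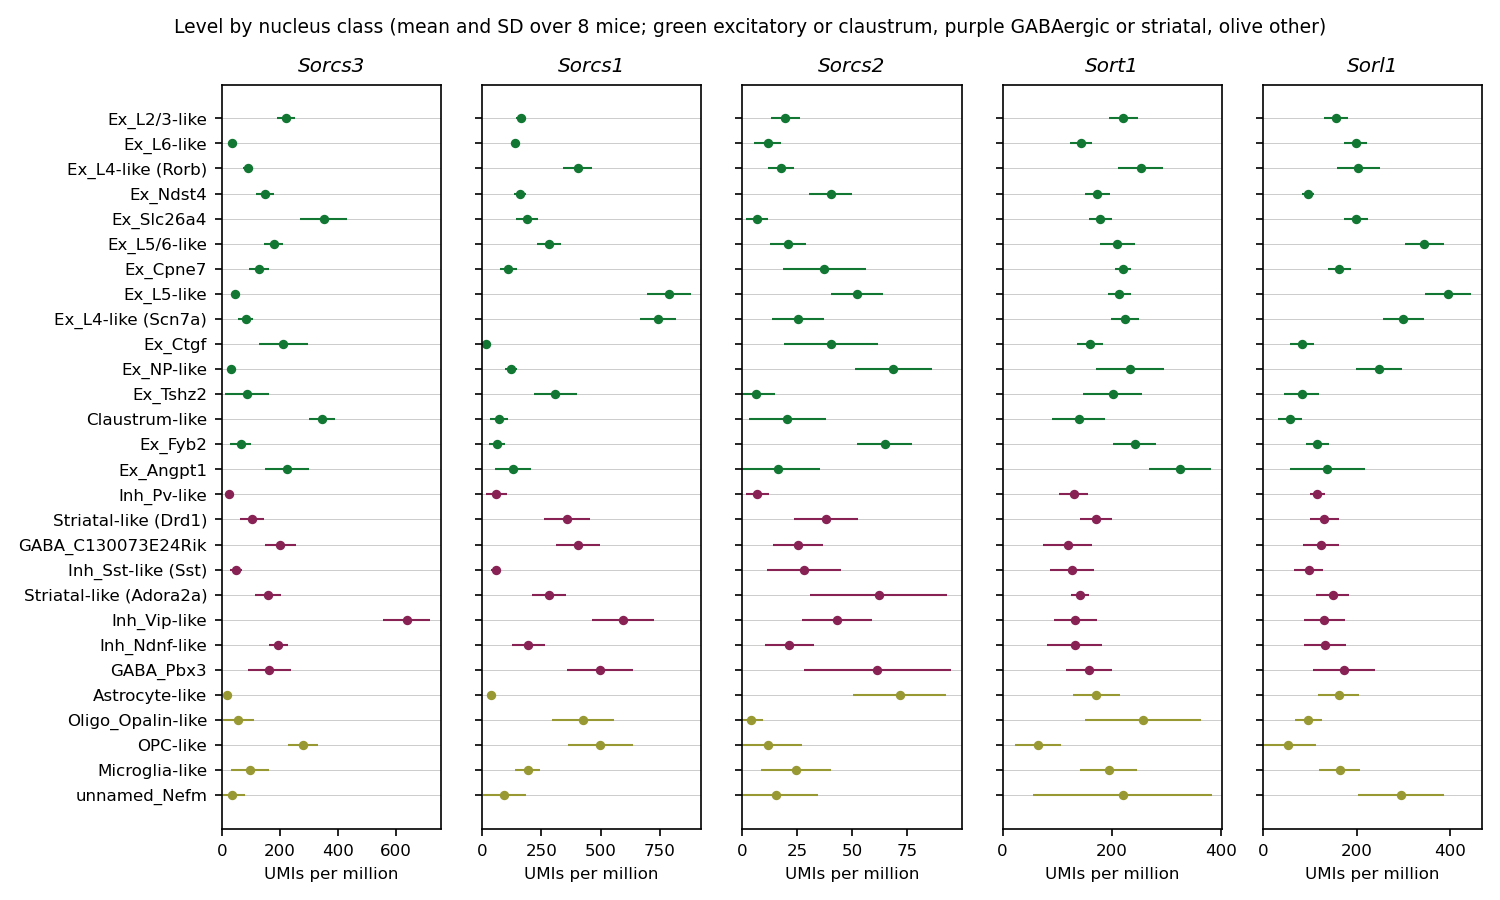
CPM of all UMIs of a class (x axes, on a scale of their own for each gene) in 28 nucleus classes (rows), as mean and SD over 8 mice. Sorcs3 peaks in Inh_Vip-like nuclei, Sorcs1 and Sorl1 in Ex_L5-like nuclei, Sorcs2 is low throughout, and Sort1 is even.

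Sorcs2 was sparse, with 1861 UMIs over all nuclei against 9954 for Sorcs3. Its highest class means were 71.5 ± 21.1 CPM in Astrocyte-like, 68.6 ± 17.6 CPM in Ex_NP-like, 64.6 ± 12.5 CPM in Ex_Fyb2 and 62.0 ± 31.1 CPM in Striatal-like (Adora2a) nuclei, which did not differ beyond their spread. Astrocyte-like nuclei were the highest class in only 1 of 8 mice, so that no class leads for Sorcs2. In Oligo_Opalin-like nuclei 5 UMIs were counted, or 3.82 CPM.

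Sort1 was the most even of the 5, with the highest class mean at 1.84 times the median class, against 5.45 times for Sorcs3 and 4.13 times for Sorcs1. It ranged from 324 ± 55.8 CPM in Ex_Angpt1 and 257 ± 105 CPM in Oligo_Opalin-like nuclei to 64.3 ± 42.03 CPM in OPC-like nuclei. The 3 lowest classes but OPC-like were GABAergic, at 119 to 129.8 CPM. Sorl1 was highest in Ex_L5-like nuclei, at 396 ± 49.4 CPM, in 7 of 8 mice. It was at 344 ± 41.2 CPM in Ex_L5/6-like and 299.7 ± 43.7 CPM in Ex_L4-like (Scn7a) nuclei, and lowest in Claustrum-like and OPC-like nuclei with 57.9 and 54.2 CPM.

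Across the 28 class means on a log2(CPM + 1) scale, Sort1 and Sorl1 were the most alike of the 10 pairs of receptor genes, with a Pearson correlation of 0.50 and a Spearman correlation of 0.43. Sorcs3 and Sorl1 were the least alike, with -0.34 and -0.29, and Sorcs3 and Sorcs1 had 0.27 and 0.25. The points share mice and libraries and differ in depth, so no p is given. Among 15372 genes, the class pattern most like that of Sorcs3 belonged to Susd4 (Pearson correlation 0.70), Gm15860 (0.66) and Cnot6l (0.62). For Sorcs1 these were 2510009E07Rik (0.67), AC126030.1 (0.64) and Pbx3 (0.63). Sorcs2 had 5430402O13Rik (0.72), Cacng8 (0.67) and Gm38217 (0.67), Sort1 had Prdm8 (0.76), Coro1a (0.71) and Ttpal (0.70), and Sorl1 had Csnk1g2 (0.73), C730002L08Rik (0.66) and AC121788.1 (0.63). These are the highest of 15372 correlations over 28 classes. Such a choice favours high values, and their level by chance was not computed. Some of these genes were low even in their highest class, such as Gm38217 at 12.0 CPM, AC121788.1 at 20.2 CPM and AC126030.1 at 21.5 CPM.

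The question was then whether CUS and control mice differed in these nuclei as they had in bulk. Summed over all nuclei of a mouse, none of the 4 receptor genes that could be tested was called at an FDR of 0.2 in edgeR's quasi-likelihood test, and neither the likelihood ratio test nor DESeq2 called one. Only 0.0199% of the 5018 genes tested were called. At an unadjusted p under 0.05, 1 of the 4 passed (Sorl1), beside 8.03% of genes, and in 0 of the 4 did the groups not overlap, beside 4.56%. Sorcs2 did not reach the filter. With the 2 sets of mice as a term, 0 of the 4 were called, beside 0.0399% of genes, and the interval of Sorcs3 was -0.17 to 0.31.

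Sorcs3 was at 133, 164, 148 and 130.4 CPM in control mice and at 130.05, 169, 159 and 147 CPM in CUS mice. The groups overlapped almost entirely. The log2 fold change was 0.07 (standard error 0.11, FDR 0.851 in edgeR), with a 95% interval from -0.18 to 0.31. The nuclei thus leave room for a rise of up to 1.24 fold. Region, age, time since the last stressor, testing before dissection and assay differ between the bulk and the single-nucleus mice, and the difference between the assays was not tested.

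Sorcs1 was at 272, 283, 256 and 249 CPM in control mice and at 195, 264, 258 and 257 CPM in CUS mice. CUS replicate 1 was far below the rest, and the other CUS mice lay within the control range. Its log2 fold change of -0.13 (standard error 0.11, FDR 0.696 in edgeR) pointed the other way than in bulk, with a 95% interval from -0.38 to 0.12, and was -0.03 without CUS replicate 1.

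**Figure D4:**
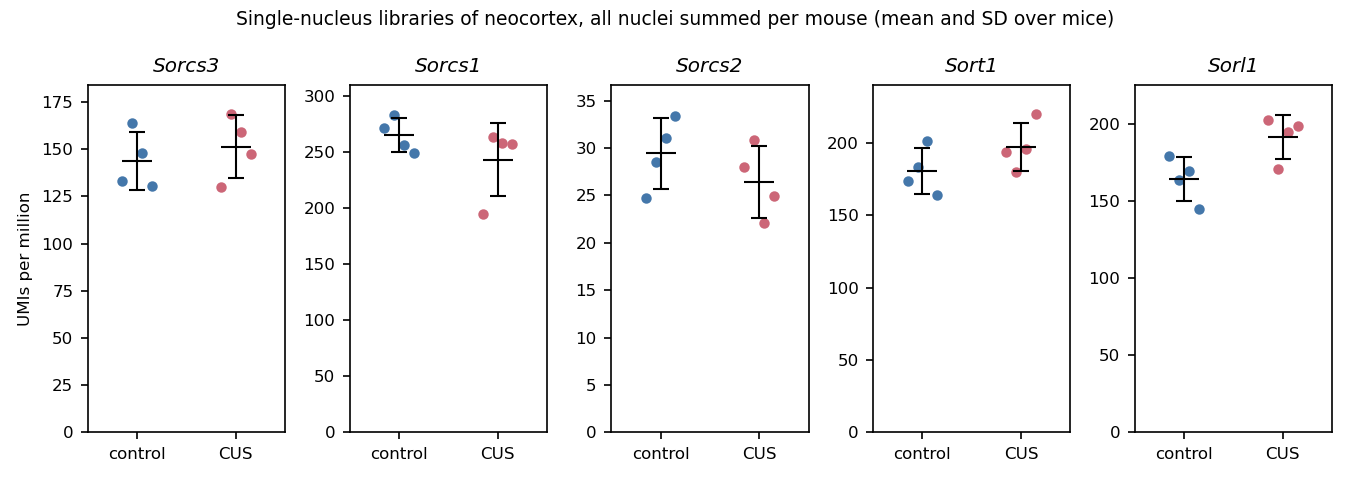
CPM of all UMIs (y axis) summed over all nuclei of each of 4 control (blue) and 4 CUS (red) mice, 1 point per mouse, with the mean and SD in black. The groups overlap for all 5 genes, Sorl1 lies highest in 3 CUS mice, and 1 CUS mouse is low for Sorcs1.

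Sorl1 was at 179, 164, 169.7 and 145 CPM in control mice and at 202, 171, 195 and 199 CPM in CUS mice. In all but CUS replicate 2 the CUS mice exceeded every control mouse. The log2 fold change was 0.21 (standard error 0.09, FDR 0.595 in edgeR), in the direction of the bulk libraries. Without CUS replicate 2 it was 0.25 with an FDR of 0.149, which would be a call, but the share of all genes called in that fit is not given. Without that mouse the sign of Sorcs3 turned, to -0.0084. Sort1 was at 173, 183, 201 and 164 CPM in control mice and at 194, 179.8, 196 and 219.9 CPM in CUS mice, overlapping, and the difference was 0.12 on the log2 scale (0.09, FDR 0.645 in edgeR).

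Within classes, 111 of 140 pairs of gene and class reached the filter, and 0 were called at an FDR of 0.2 within the class by edgeR's quasi-likelihood test, its likelihood ratio test or DESeq2. Over the 28 classes 0.106% of all tests were called by the first, 0.286% by the second and 0.0662% by DESeq2. At an unadjusted p under 0.05, 7 of the 111 passed, beside 5.96% of all tests, and in 5 the groups did not overlap, beside 3.36%. Both shares are near those of all genes. With the 2 sets of mice as a term, 0 of the 111 were called, beside 0.312% of all tests. Without CUS replicate 2, 3 pairs were called, namely Sorl1 in Ex_L4-like (Rorb) (FDR 0.121 in edgeR) and Ex_L2/3-like nuclei (FDR 0.169), both higher, and Sorcs1 in Ex_L4-like (Rorb) nuclei (FDR 0.0976), lower. The share of all tests called without that mouse is not given, so whether these 3 calls exceed it is not known.

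For Sorcs3, 23 classes were tested, 15 with a fold change above 0 and 8 below. In Inh_Vip-like nuclei, where it was highest, control mice had 626, 665, 596 and 745 CPM and CUS mice 521, 547, 663 and 737 CPM. These ranges overlapped, and the log2 fold change was -0.08 (standard error 0.20, FDR 0.995 in edgeR). In Ex_L2/3-like nuclei the level was 217 ± 29.3 CPM in control and 225 ± 34.3 CPM in CUS mice (n = 4 each), a log2 fold change of 0.03 with a 95% interval from -0.25 to 0.32. Ex_Ndst4 nuclei had the smallest p of the gene, with 104, 149, 139 and 104 CPM in control and 152, 182, 179.8 and 171 CPM in CUS mice. There the groups did not overlap, and CUS mice were higher by 0.40 on the log2 scale (0.16, FDR 0.586 in edgeR). The groups also did not overlap in Ex_L5-like nuclei, which hold little Sorcs3, at 27.9 to 44.2 CPM in control and 44.9 to 55.4 CPM in CUS mice (0.33, standard error 0.27, FDR 0.916 in edgeR).

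**Figure D5:**
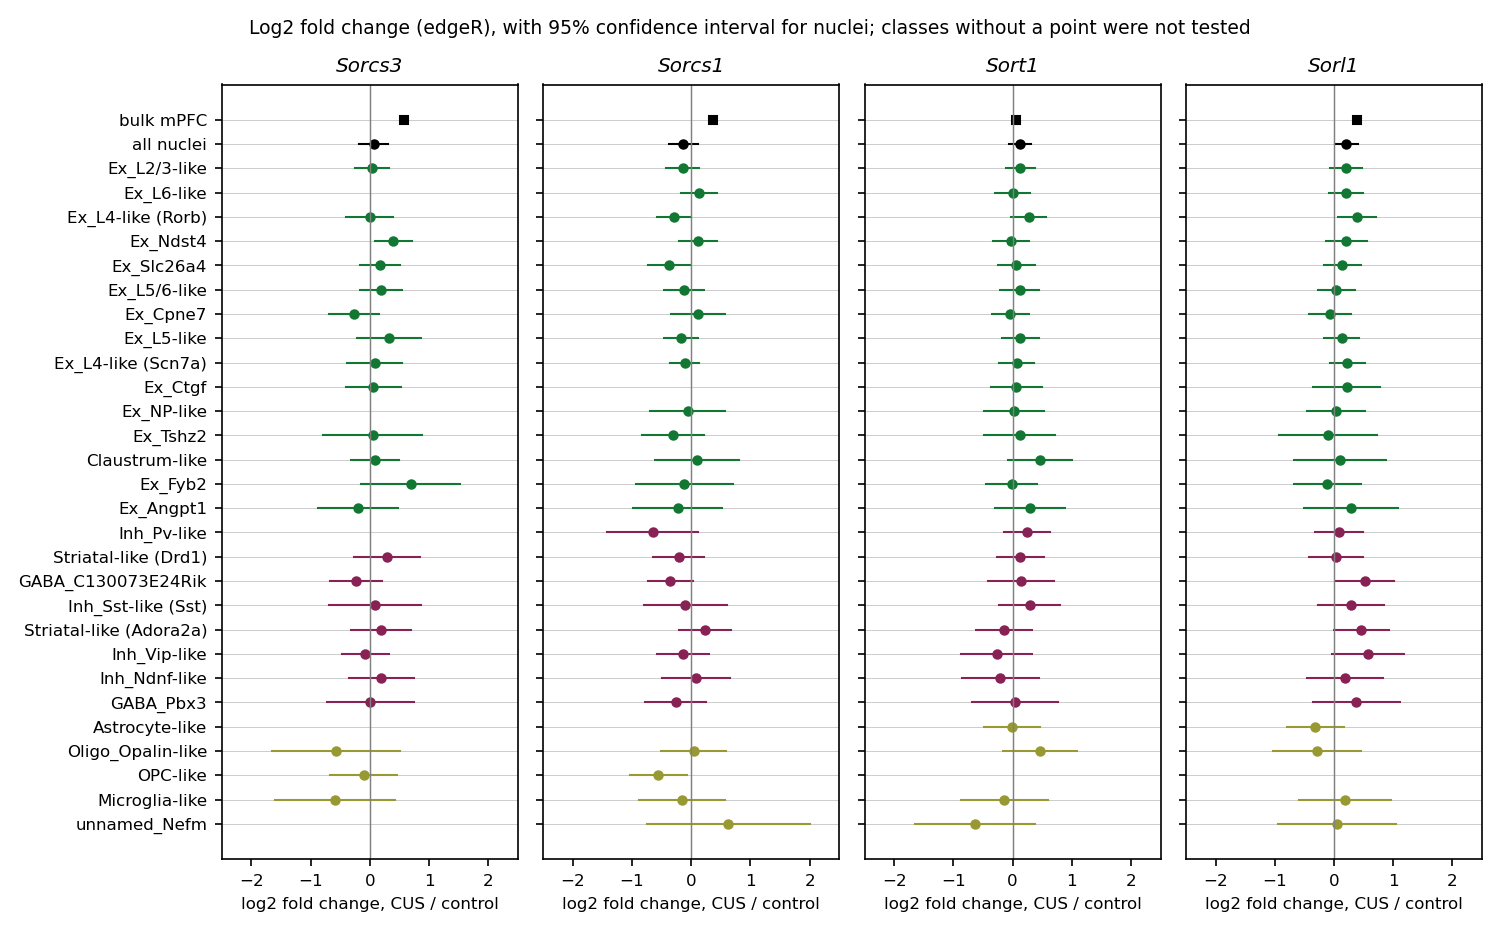
Log2 fold change, CUS against control (x axes), for bulk mPFC (square, without an interval, since these values chose the family) and, with 95% confidence intervals from edgeR, for all nuclei summed and each tested class (circles). Sorl1 lies above 0 in most classes and Sorcs1 below 0 in most, and most class intervals cross 0.

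Sorl1 had a fold change above 0 in 22 of 27 tested classes, with a median of 0.18. The classes come from the same 8 mice, so this is 1 pattern and not 27. Its smallest p was in Ex_L4-like (Rorb) nuclei, at 175 ± 36.9 CPM in control and 233 ± 34.9 CPM in CUS mice, which is a difference of 0.39 on the log2 scale (0.15, FDR 0.403 in edgeR). In Ex_L5-like nuclei, where it was highest, control mice had 376 ± 32.0 CPM and CUS mice 415 ± 60.1 CPM. Both Astrocyte-like and Oligo_Opalin-like nuclei were among the 5 classes below 0.

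Sorcs1 had a fold change below 0 in 18 of 26 tested classes, with a median of -0.13. These classes, too, come from the same mice and are 1 pattern. CUS replicate 1, without which the value over all nuclei was -0.03, was the lowest CUS mouse in several of them. These included Ex_L2/3-like (122 CPM), Ex_L4-like (Rorb) (288 CPM) and Ex_L5-like nuclei (690 CPM), but not OPC-like nuclei. In OPC-like nuclei control mice had 501, 777, 499 and 595 CPM and CUS mice 366, 351, 446 and 449 CPM. The groups did not overlap, and the difference was -0.55 on the log2 scale (0.24, FDR 0.868 in edgeR). Ex_L4-like (Rorb) and Ex_Slc26a4 nuclei, at -0.29 and -0.37, had the other p-values under 0.05. Sorcs2 could be tested in 8 classes and was lower in CUS mice in 5. Ex_Ndst4 nuclei held 47.5 ± 5.54 CPM of Sorcs2 in control and 32.8 ± 7.21 CPM in CUS mice, which is a difference of -0.53 on the log2 scale (0.25, FDR 0.634 in edgeR). Sort1 had no p under 0.05 in 27 classes.

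Excitatory (17420) and inhibitory (2855) nuclei were compared directly, as log2(CPM + 1) of excitatory minus inhibitory nuclei in each mouse. The inhibitory group held only classes named Inh, which leaves out GABA_C130073E24Rik (874) and GABA_Pbx3 nuclei (294). Claustrum-like nuclei (381) were left out of the excitatory group. For Sorcs3 the CUS minus control difference was 0.13 in excitatory and -0.10 in inhibitory nuclei, and these differed by 0.23 (exact permutation test over 4 against 4 mice, two-sided, p = 0.286, and 0.714 after Benjamini-Hochberg adjustment over 5 genes). The same difference was 0.16 for Sorcs1, -0.39 for Sorcs2, 0.04 for Sort1 and -0.05 for Sorl1, with exact p-values of 0.514, 0.314, 0.714 and 0.714. These values moved by over 1.5 times with a mouse left out. The smallest p that 4 against 4 mice allow is 0.0286. A different response of the 2 kinds of neuron was not detectable with these mice. Sorl1 was higher in CUS mice in both, by 0.20 and 0.25.

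The shares of the classes among all nuclei are set beside these values without a test, and their part in them was not tested. Striatal-like (Drd1) nuclei were 4.63% to 6.01% of nuclei in control and 1.46% to 5.43% in CUS mice, and Striatal-like (Adora2a) nuclei 2.73% to 3.94% and 1.02% to 3.37%. Ex_L5-like nuclei, highest for Sorcs1 and Sorl1, were 1.76% to 3.14% and 2.47% to 3.95%. These ranges overlap, and they stand beside the differences of Sorl1 (0.21) and Sorcs1 (-0.13) over all nuclei. Inh_Vip-like nuclei were 1.46% to 2.12% of nuclei in control and 1.81% to 2.29% in CUS mice, and Ex_Slc26a4 nuclei 3.77% to 6.22% and 4.90% to 5.87%. Claustrum-like nuclei were 1.45% to 1.68% and 1.11% to 1.39%, without overlap. In bulk, the 6 markers of VIP interneurons summed to 17.0 to 20.8 CPM in control and 20.97 to 24.99 CPM in CUS mice, with 1 called (Htr3a, log2 fold change 0.73) and a median of 0.25. Their sums did not overlap, and Vip itself was at 11.9 and 14.98 CPM. Of 5 claustrum markers in bulk, 4 had a fold change below 0, with a median of -0.18 and 1 called lower. Their sums were 186 to 226 CPM in control and 190 to 262 CPM in CUS mice. The part of both marker lists in the bulk level of Sorcs3 was not tested.

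Among genes of the receptor pathway in the nuclei, 0 of 30 tested over all nuclei and 0 of 765 tests within classes were called at an FDR of 0.2 in edgeR's quasi-likelihood test. At an unadjusted p under 0.05, 4 of the 30 and 46 of the 765 passed, beside 8.03% and 5.96% of all tests. With the 2 sets of mice as a term, 0 of the 30 and 2 of the 765 were called, beside 0.0399% and 0.312% of all tests. The 2 are thus near the share of all tests and are not read as a result about the pathway. They were Psap, which encodes the lysosomal cargo prosaposin, in Ex_L2/3-like nuclei and Lrp1, an endocytic receptor, in Ex_L4-like (Rorb) nuclei, both higher.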

How the data were processed

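Bulk nuclear RNA-seq and sNucDrop-seq tables were used. The authors mapped the reads to mm10 (STAR in the submitters' notes) and deposited raw counts, as reads per gene in bulk and UMIs per gene and barcode in nuclei (GENCODE M13, exonic and intronic). The bulk annotation is not given in the sources used here. Members and gene lists were chosen with earlier results of these data known.

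Bulk counts passing filterByExpr (18394 genes) were tested with edgeR 4.0.16 (R 4.3.3): TMM factors, quasi-likelihood test, Benjamini-Hochberg FDR of 0.05. Alternatives were the study's own test (edgeR, likelihood ratio) and DESeq2 1.42.0. Of 40000 barcodes, 31486 passed filters on genes (600 to 5000) and mitochondrial UMIs (under 5%), and 4787 with a Scrublet score above 0.2 (scanpy) were removed as doublets, leaving 26699 nuclei, fewer than the study kept. Seurat 5.3.0 clustered them at a resolution of 1. UMIs were summed per mouse and class, and genes with UMIs above 10% of the nuclei were tested at an FDR of 0.2. The study fitted batch in the nuclei. No batch term was used here, because the labels give none. A fit with 2 sets of mice, read from the correlations of the libraries, was added after the data were seen. Other alternatives were no TMM factors, no filter, a block on the replicate number, each mouse left out, resolutions of 0.6 and 1.5, no doublet filter, 1000 genes per nucleus and a pseudocount of 0.1. Named genes were the 5 receptors, pathway genes and neighbours called, the nearest tested neighbours, the 3 genes most alike over classes, and defining markers beside a value. Bdnf and App were named after their values were seen. Some genes that the rule names are not reported here. Scripts were tested on simulated data. Depth limits rare genes, and PCR copies remain in the bulk counts.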

Additional observations from a re-analysis of the deposited data

Results flagged for a closer look

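The 20 groups of 4 or 5 mice were searched for single mice far from the rest, by Dixon's criterion, which marks about 1 in 20 groups by chance, and 2 were found. Sorl1 in bulk control mice was at 423 CPM in control replicate 3, against 304 to 312 CPM in the other control mice. Sorcs1 over all nuclei of CUS mice was at 195 CPM in CUS replicate 1, against 257 to 264 CPM in the other CUS mice.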

How the results depend on the processing

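The fold changes of the 5 genes in bulk kept their direction under all alternatives run. These alternatives refit the mice that chose the family, so this describes only the settings. Class levels were recomputed for 1 class per gene (Sorcs3 in Inh_Vip-like, Sorcs1 and Sorl1 in Ex_L5-like, Sorcs2 in Astrocyte-like and Sort1 in Oligo_Opalin-like nuclei) and moved by less than 1 SD there. Leaving out a mouse cannot move such a mean by 1 SD, so those settings do not measure stability. Some clusterings returned the same value, as for Sorcs2, at 71.5 CPM at resolutions of 0.6 and 1.5. Without the doublet filter Sorcs3 was at 624, Sorcs1 at 779 and Sorl1 at 386 CPM. Counts of calls changed with the settings, and the cause was not tested. Where no share of all genes called is stated above for a setting, its count stands without one. In bulk, where the choice of the family fixes the outcome and the counts describe only the settings, the 2 receptor genes called became 4 with the likelihood ratio test, DESeq2, no TMM factors and no filter on low counts, 1 with the replicate block and 1 to 4 with a mouse left out. The 3 pathway genes became 5 with the likelihood ratio test, 6 with DESeq2, 5 without TMM factors and 1 to 6 with a mouse left out, and the 6 neighbours became 11 with the likelihood ratio test, 10 with DESeq2, 2 with the replicate block and 1 to 15 with a mouse left out. In the nuclei, 0 to 1 receptor genes were called over all nuclei and 0 to 3 within classes with a mouse left out, and 0 under every other alternative run, including the 2 sets of mice as a term, which was added after the data were seen. The Sorcs3 fold change over all nuclei ran from -0.0084 to 0.14 with a mouse left out and reversed, to -0.0084, without CUS replicate 2. The difference between excitatory and inhibitory nuclei, never past the threshold, ran with a mouse left out from 0.11 (without CUS replicate 2) to 0.36 (without control replicate 3) for Sorcs3, from 0.010 (without control replicate 4) to 0.31 (without control replicate 1) for Sorcs1, from -0.71 (without CUS replicate 3, exact permutation p = 0.0571) to -0.24 (without control replicate 4) for Sorcs2, from -0.029 to 0.11 for Sort1 and from -0.081 to 0.033 for Sorl1, reversing without CUS replicate 3 (Sort1, -0.029) and without control replicate 1 (Sorl1, 0.033). With a minimum of 1000 genes it was 0.44 for Sorcs3, 0.39 for Sorcs1 and 0.074 for Sort1, and without the doublet filter 0.012 for Sorcs1. Whether replicate numbers pair the mice is not settled: same-numbered mice correlated by 0.033 to 0.23 in bulk and by -0.45 to 0.40 in nuclei. Of 4 control mice, 2 in bulk and 1 in nuclei correlated best with the CUS mouse of their own number. Classes without the same name at another clustering have no value there.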
